A study of Mus musculus with 6 samples.

Results

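The genes described here encode proteins of blood coagulation, of fibrinolysis (the breakdown of clots) and of the inter-alpha inhibitor family, in mouse liver with and without SHP (gene Nr0b2), an orphan nuclear receptor that represses other transcription factors. They were chosen by name, with earlier results of these data known. The 38 named genes were looked up in the deposited gene table, and all 38 were found among its 19594 genes with counts. Of the 38, 35 passed the low-count filter that left 11794 genes for testing. The liver samples came from male mice of C57BL6 background aged 2 months, 3 labelled SHP -/- and 3 labelled wild type. No treatment is given, and the labels do not say which cells of the liver were taken or how the allele was made. RNA was extracted with TRIzol, enriched for 5′ caps by binding to a variant of the cap-binding protein EIF4E, and sequenced as paired reads of 36 cycles, 3 barcoded libraries to a lane. The labels do not say which libraries ran together, so an effect of lane and one of genotype cannot be told apart.

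Hepatocytes make most of the circulating coagulation proteins. In the cascade, serine proteases activate each other in turn, with factors V and VIII as cofactors, until thrombin (made from prothrombin) cuts fibrinogen into fibrin, which factor XIII crosslinks and plasmin later dissolves. Serine protease inhibitors and the protein C system limit each step. Inter-alpha inhibitors are plasma proteins in which heavy chains (Itih genes) are joined to bikunin (from Ambp) and can be passed on to hyaluronan in the extracellular matrix.

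Coagulation genes of the liver are textbook targets of the factors HNF1, HNF4 and C/EBP, and the fibrinogen genes of STAT3, while LRH-1 is a receptor that SHP represses. Promoter windows, the 250 bases before each start, were available from RefSeq (GRCm38.p6) for 30 of the 38 genes. Those of the 3 fibrinogen genes, which lie in 1 cluster and differed in the same direction, and of the neighbours F7 and F10, which differed in size of change, are shown 5′ to 3′ on the gene's strand, with motif matches in capitals.
Fga (chr3:83025903-83026152, plus strand): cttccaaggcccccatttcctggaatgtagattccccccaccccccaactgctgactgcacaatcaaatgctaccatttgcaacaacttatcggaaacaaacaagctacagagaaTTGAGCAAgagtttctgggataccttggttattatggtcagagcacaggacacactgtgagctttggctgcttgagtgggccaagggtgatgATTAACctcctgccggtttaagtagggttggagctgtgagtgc
Fgb (chr3:83049864-83050113, minus strand): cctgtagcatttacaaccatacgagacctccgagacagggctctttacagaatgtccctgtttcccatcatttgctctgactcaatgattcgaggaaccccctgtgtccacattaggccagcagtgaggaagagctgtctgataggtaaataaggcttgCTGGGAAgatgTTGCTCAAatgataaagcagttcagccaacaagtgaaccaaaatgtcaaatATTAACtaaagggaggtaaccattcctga
Fgg (chr3:83007474-83007723, plus strand): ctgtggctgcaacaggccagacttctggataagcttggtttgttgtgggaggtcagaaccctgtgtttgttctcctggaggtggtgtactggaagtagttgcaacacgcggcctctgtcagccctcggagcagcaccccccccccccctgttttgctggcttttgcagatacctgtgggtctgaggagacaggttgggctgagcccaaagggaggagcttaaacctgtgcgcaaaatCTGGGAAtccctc
F7 (chr8:13025784-13026033, plus strand): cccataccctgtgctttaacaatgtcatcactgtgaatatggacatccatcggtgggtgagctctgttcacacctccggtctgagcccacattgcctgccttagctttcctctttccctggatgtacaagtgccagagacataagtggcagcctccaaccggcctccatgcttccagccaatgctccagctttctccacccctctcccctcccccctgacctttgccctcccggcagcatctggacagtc
F10 (chr8:13037058-13037307, plus strand): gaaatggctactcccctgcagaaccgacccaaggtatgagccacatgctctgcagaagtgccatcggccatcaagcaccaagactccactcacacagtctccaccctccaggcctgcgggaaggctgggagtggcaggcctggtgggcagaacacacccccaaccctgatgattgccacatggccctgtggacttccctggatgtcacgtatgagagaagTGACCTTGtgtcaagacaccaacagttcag

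On both strands, the motifs searched were GTTAAT (one arm of an HNF1 site, called the HNF1 arm below), the full HNF1 palindrome that contains it, CAAAGTCCA (HNF4), CAAGGTCA (LRH-1), TTGCNNAA (C/EBP) and CTGGGAA (STAT3 type). In Fga the capitals mark a C/EBP match that starts 135 bases before the gene's start and an HNF1 arm at 43 bases. In Fgb they mark a STAT3 type match at 91, a C/EBP match at 80 and an HNF1 arm at 29 bases, and in Fgg a STAT3 type match at 13 bases. The F10 window held an LRH-1 match at 30 bases, and these letters were not found in the F7 window. Over the 30 genes, the HNF1 arm was found in 6 (20.0%: F13b, Fga, Fgb, Itih1, Proz and Pzp), against 6.43% of all 32851 windows. Shares of the 30 count genes with a match in any of their windows, while shares of all windows count each window singly. C/EBP letters were found in 9 (30.0%, against 9.56%), STAT3 type letters in 4 (13.3%, against 9.10%) and LRH-1 letters in 2 (Ambp and F10; 6.67%, against 1.33%). The HNF4 letters and the full HNF1 palindrome were in 0 of the 30, against 0.384% and 0.00913% of all windows. Of the genes with a window, 2 of 9 called higher and 1 of 5 called lower held the HNF1 arm, and 3 of 9 and 3 of 5 the C/EBP letters. The STAT3 type letters were in 2 of 9 and 1 of 5, and the LRH-1 letters in 0 of 9 and 0 of 5. A match is a run of letters and not a shown binding site.

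In wild-type liver the fibrinogen chains had the highest levels per length of the group. On a scale of CPM (counts scaled to a common library total) per kilobase of gene length, the wild-type mean was 3568 ± 285 (SD, n = 3) for Fgb, 2927 ± 375 for Fgg and 2388 ± 225 for Fga, followed by 2287 ± 171 for Ambp and 1326 ± 177 for Pzp, the mouse alpha-macroglobulin. Fgg was above Fga and Ambp in each wild-type library, and the order of Fga and Ambp lay within their spreads. Next came Serpinc1 (antithrombin) at 1078 ± 24.0 and Plg (plasminogen) at 1007 ± 14.6, and then Itih2 at 542 ± 54.2. In all, 30 of the 38 genes were above 10 on this scale, the lowest of them Pros1 (protein S) at 19.9 ± 0.649, and 8 were below it, the highest of them F8 at 7.35 ± 0.100. Those 8 were F8, Thbd, Tfpi, F3, Vwf, Plaur, Plau and Plat, genes that are known from endothelium and other non-hepatocyte cells, down to 0.293 ± 0.140 for Plat. Ranked by the RPKM values for pooled groups in the authors' deposited table, 36 of the 38 kept their place. Those values come from the same counts and gene lengths, so the ranking is not separate support.

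**Figure D1:**
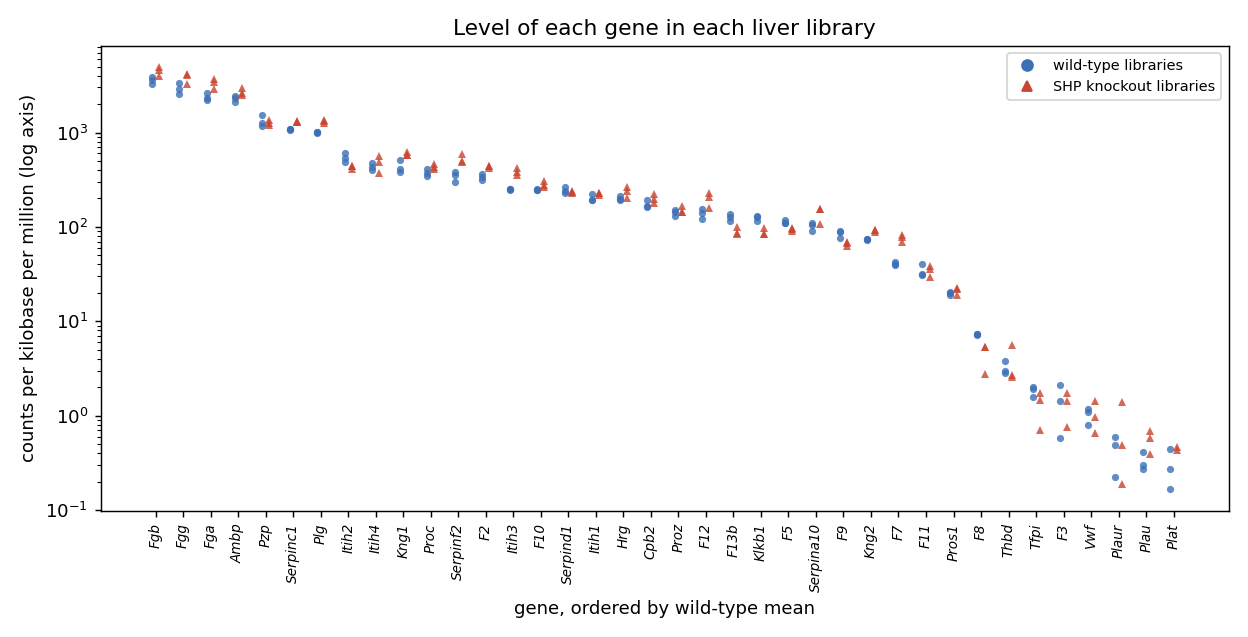
Level of each of the 38 genes in each library, in CPM per kilobase on a log axis, with genes ordered by their wild-type mean (circles, 3 wild-type libraries; triangles, 3 SHP knockout libraries). The value of 0 for Plat in knockout library 1 cannot be drawn on this axis; the 3 fibrinogen genes stand at the left and the 8 genes with wild-type means below 10 at the right.

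The 38 genes together took 4.12%, 4.42% and 4.25% of all gene counts in the 3 wild-type libraries, and 5.29%, 5.10% and 4.84% in those labelled knockout. Each knockout share was above each wild-type share. The 3 fibrinogen genes made up 1.39%, 1.61% and 1.53% in wild type and 2.12%, 2.07% and 1.80% in knockout, again without overlap. Mitochondrially encoded genes, which also count in the total, made up 10.2% to 10.3% of counts in wild type but 5.66% to 7.10% in the knockout libraries. With those genes left out of the total, the shares of the 38 genes were 4.60%, 4.92% and 4.73% against 5.69%, 5.47% and 5.13%. Library depth ranged between 4494353 and 7225842 counts. Nr0b2 itself was at 17.7, 12.3 and 13.5 CPM in wild type and 6.62, 7.07 and 10.3 CPM in knockout, so its transcripts were lower but still present (log2 difference −0.81 ± 0.25 SE, adjusted p = 0.0443).

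Between genotypes, 11 of the 35 tested genes were higher in knockout liver and 5 lower, and 19 did not pass (limma voom, Benjamini-Hochberg adjusted p under 0.05 over 11794 genes). The called share was 45.7%, against 14.5% of all genes tested (7.58% higher and 6.94% lower). Most of the 35 are abundant: at a wild-type mean of at least 50 CPM, 16 of 31 (51.6%) were called, against 28.3% of all genes at that level. The groups of 3 did not overlap for 19 of the 35 (54.3%; 13 with knockout above, 6 with knockout below), against 35.1% of all genes. Unlike the called share, this one was not compared at a matched level. The median log2 difference was 0.18, beside −0.01 over all genes. Differences were positive for 26 (74.3%) and negative for 9, beside 49.5% positive over all genes. In absolute size the median was 0.32, beside 0.29 over all genes, and the median SE 0.11 beside 0.20. Changes were modest: 0 called genes reached 2-fold, and F7, Itih3, Serpinf2 and F8 passed 1.5-fold.

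Calls near the threshold depended on single libraries. Leaving out wild-type library 3 left 3 genes called higher and 1 lower, and leaving out knockout library 1 left 4 and 3. Without knockout library 2 there were 6 and 3, without wild-type library 2 there were 9 and 2, and without knockout library 3 there were 10 and 3. The calls of F7, Itih3, Serpinf2 and Klkb1 held in all 6 fits that left out 1 library. Below, the highest adjusted p over those 6 fits is given with each call that was lost in any of them. The authors' deposited table, with its own test, had an adjusted p under 0.05 for 8 of the genes (F7, F8, F12, F13b, Klkb1, Kng1, Itih3 and Serpinf2), against 7.83% of the genes in it; all 8 were among the 16. The limma voom p-values set each difference against the spread between the 3 animals of each group that the design text names. The sources used here do not say what spread the authors' p-values rest on.

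**Figure D2:**
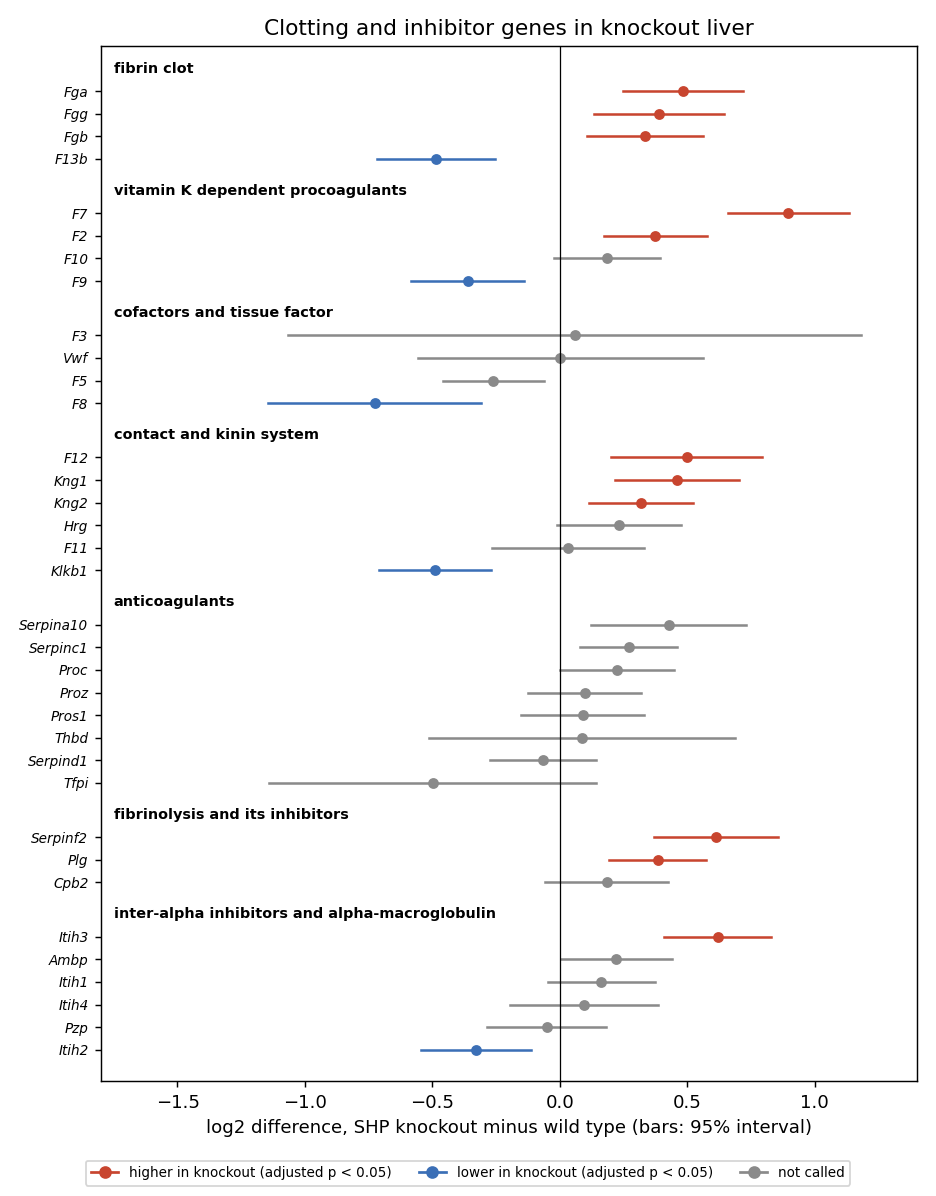
Log2 difference (SHP knockout minus wild type, limma voom) of the 35 tested genes by role, with 95% intervals; red marks genes called higher, blue genes called lower and grey genes not called. F7 has the largest positive difference (0.90) and F8 the largest negative one (−0.73), and the 8 anticoagulants are all grey.

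The 3 genes of fibrinogen, the soluble precursor of the clot, were higher in knockout liver, and F13b, the carrier subunit of the crosslinking factor XIII, was lower. Fga (alpha chain; ENSMUSG00000028001, mm9 chromosome 3, 82830079 to 82836185, plus strand) was at 4417, 5283 and 4642 CPM in wild type and 7428, 6823 and 5856 CPM in knockout. All knockout libraries lay above all wild-type libraries, with knockout library 3 the lowest of its group (log2 difference 0.48 ± 0.11, adjusted p = 0.0111, up to 0.0641, lost without wild-type library 3 or knockout library 1). Fgb (beta chain; ENSMUSG00000033831, 82846169 to 82853731, minus strand) was at 5417, 6357 and 5887 CPM against 8146, 7608 and 6556 CPM. Its groups did not overlap either, but the gap between wild-type library 2 and knockout library 3 was small (0.33 ± 0.11, adjusted p = 0.0496). That call was lost without wild-type library 1 or 3 or knockout library 1 or 2 (up to 0.182) and under limma trend (0.106). Fgg (gamma chain; ENSMUSG00000033860, 82811818 to 82818969, plus strand) was at 3922, 5054 and 4380 CPM against 6188, 6319 and 4997 CPM. Here knockout library 3 fell below wild-type library 2, so the groups overlapped (0.39 ± 0.12, adjusted p = 0.0432). The call was lost without the same 4 libraries (up to 0.145) and under limma trend (0.0773).

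The chains did not keep exactly the same proportions. Per length, the Fga to Fgb ratio was 0.672, 0.685 and 0.650 in wild type and 0.751, 0.739 and 0.736 in knockout, so every knockout library was above every wild-type one, while the Fgg to Fgb ratio overlapped (0.818 ± 0.0398 against 0.851 ± 0.0436, SD, n = 3). No test was run on these ratios. F13b (ENSMUSG00000026368, mm9 chromosome 1, 141398284 to 141420333) was at 322, 294 and 346 CPM in wild type and 221, 214 and 253 CPM in knockout. The groups did not overlap (−0.48 ± 0.11, adjusted p = 0.00968, up to 0.0602, lost without wild-type library 3).

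Vitamin K-dependent procoagulants, proteases whose gamma-carboxylated domain binds membranes, moved in different directions. F7, the protease that tissue factor binds to start coagulation (ENSMUSG00000031443, mm9 chromosome 8, 13026034 to 13035809), was at 76.1, 79.2 and 73.4 CPM in wild type and 153, 128 and 146 CPM in knockout. The lowest knockout library was well above the highest wild-type library, and F7 had the largest difference of all 35 genes (0.90 ± 0.11, 95% interval 0.66 to 1.13, adjusted p = 0.000301). F2, prothrombin, was at 1546, 1655 and 1434 CPM against 2010, 2047 and 1942 CPM, also without overlap (0.37 ± 0.09, adjusted p = 0.0179, up to 0.0945, lost without wild-type library 3 or knockout library 1 or 2). F9, the protease deficient in haemophilia B, went the other way, with 210, 248 and 240 CPM against 187, 183 and 172 CPM. Its groups were separate (−0.36 ± 0.10, adjusted p = 0.0330), but the call was kept only without wild-type library 1 among the fits that left out 1 library (up to 0.119). F10, the protease that makes thrombin, was at 672, 684 and 668 CPM against 835, 717 and 755 CPM. Those groups did not overlap, and the difference of 0.19 ± 0.10 did not pass (adjusted p = 0.210).

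Among the cofactors, F8 was lower and the other 3 were not called. F8, the cofactor of factor IX, made in liver mainly by sinusoidal endothelial cells (ENSMUSG00000031196, mm9 chromosome X, 72418054 to 72627954), was at 71.7, 73.2 and 73.5 CPM in wild type and 27.2, 53.4 and 53.4 CPM in knockout. All knockout libraries were below wild type, and knockout library 1 stood apart at the low end (−0.73 ± 0.19, adjusted p = 0.0247). Without knockout library 1 the difference was −0.44 (adjusted p = 0.0488), and the call was lost without wild-type library 2 (0.0672) or 3 (0.100). F5, the cofactor of factor Xa, was at 793, 842 and 779 CPM against 691, 646 and 678 CPM, with separate groups (−0.26 ± 0.09, adjusted p = 0.0748). Vwf, the carrier of factor VIII and an endothelial protein, was at 19.1, 12.7 and 17.6 CPM against 10.5, 15.7 and 22.8 CPM (0.00 ± 0.26, adjusted p = 0.996). F3, tissue factor, was near the filter at 3.75, 1.04 and 2.54 CPM against 1.37, 2.55 and 3.09 CPM (0.06 ± 0.52, 95% interval −1.07 to 1.18), a depth at which even a 2-fold difference lay within the interval.

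Most endothelial markers and several stellate ones were also low in knockout library 1, which was below every other library for 9 of 11 endothelial and 5 of 9 stellate markers. It was above every wild-type library for Lyve1, Col1a1 and Col1a2. The summed level of 11 sinusoidal endothelial markers was 694 to 782 CPM in wild type and 495, 756 and 774 CPM in knockout, with knockout library 1 the lowest. The sum of 9 stellate and mesenchymal markers was 323 to 372 CPM in wild type and 192, 392 and 382 CPM in knockout. Stab2, an endothelial scavenger receptor, was at 157, 146 and 140 CPM against 98.6, 133 and 128 CPM, and Clec4g at 69.1, 67.1 and 75.6 against 40.2, 67.0 and 55.7 CPM; neither was called. Of the 11, Lyve1 was called and was higher (0.82 ± 0.22, adjusted p = 0.0244, up to 0.0855). No endothelial or stellate marker was at 0 in all libraries. Tfpi, Thbd and Vwf were also at their lowest knockout value in library 1. The part of these cells in the result for F8 was not tested, and in whole liver fewer cells of a type and less RNA per cell cannot be told apart.

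Contact and kinin genes showed F12 and both kininogens higher and plasma prekallikrein lower. F12, the protease that starts the contact pathway on negatively charged surfaces, was at 296, 234 and 273 CPM in wild type and 302, 440 and 401 CPM in knockout. Knockout library 1 was only just above the highest wild-type library (0.50 ± 0.14, adjusted p = 0.0285, up to 0.0978, lost without wild-type library 2 or 3 or knockout library 2 or 3). Klkb1, prekallikrein, which cuts kininogen to release bradykinin (ENSMUSG00000031640, mm9 chromosome 8, 46354811 to 46393820), was at 309, 345 and 334 CPM against 225, 221 and 257 CPM. The groups were well separated (−0.49 ± 0.10, adjusted p = 0.00765, and at most 0.0423 without any 1 library). Kng1, a kininogen, was at 1287, 1616 and 1205 CPM against 1949, 1826 and 1833 CPM (0.46 ± 0.11, adjusted p = 0.0158, up to 0.0982, lost without wild-type library 3 or knockout library 1). Its wild-type values were spread more widely than its knockout values. Kng2 was at 168, 173 and 170 CPM against 217, 214 and 206 CPM, tight and separate groups (0.32 ± 0.10, adjusted p = 0.0399). That call was lost in each of the 6 fits without 1 library (up to 0.113) and with no low-count filter (0.0574). The kininogen genes are near-identical copies, so reads may have been split between them and the separate values are uncertain. F11, the protease that activates factor IX, was at 89.9, 69.6 and 70.5 against 80.6, 66.6 and 87.4 CPM, and Hrg, histidine-rich glycoprotein, at 356, 332 and 322 against 448, 339 and 406 CPM; both overlapped and neither passed (0.03 ± 0.14 and 0.23 ± 0.11, adjusted p = 0.900 and 0.186).

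**Figure D3:**
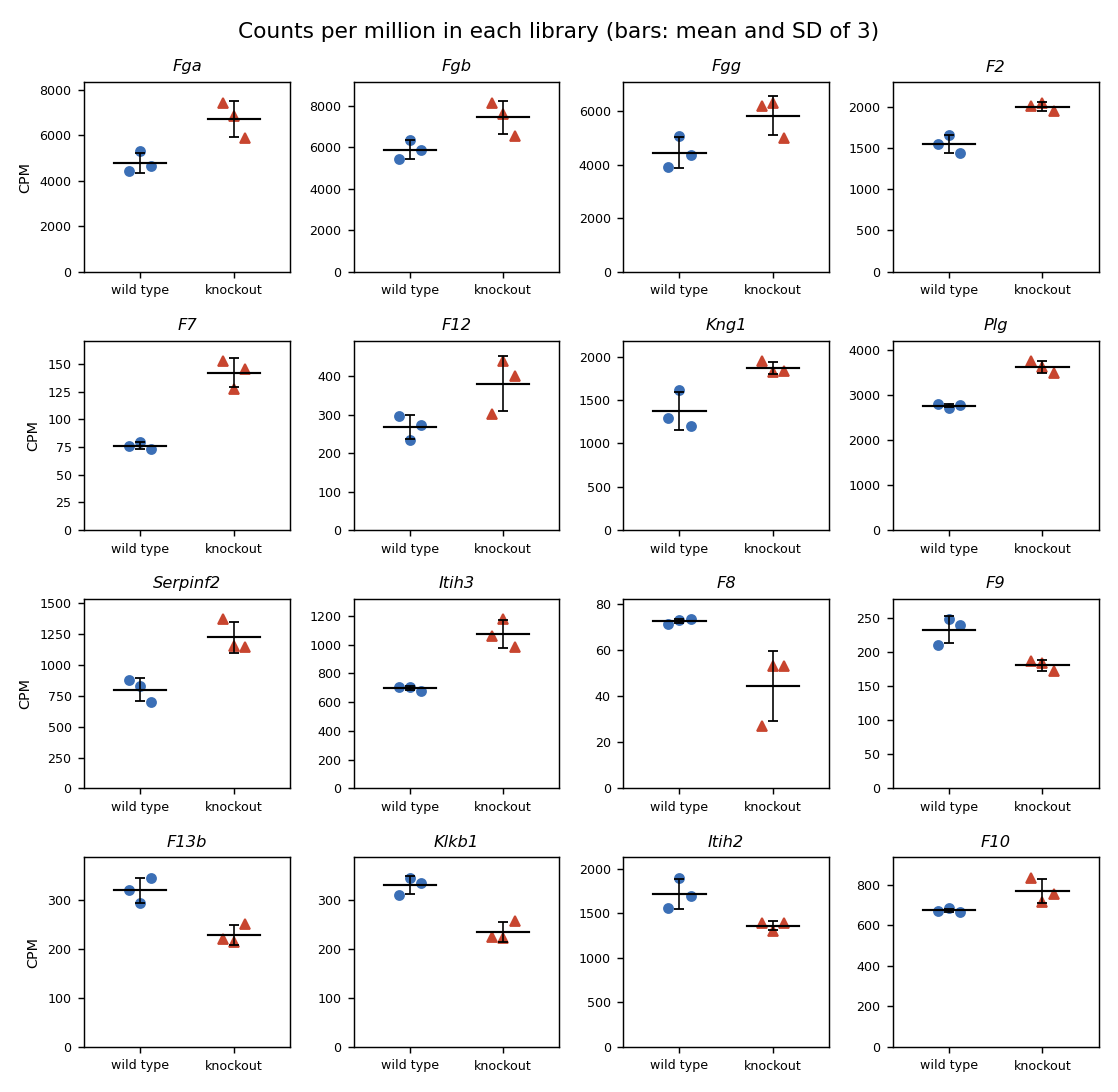
CPM of 16 of the genes in each of the 6 libraries (circles, wild type; triangles, SHP knockout; horizontal lines, mean; bars, SD of 3; linear axes from 0). F7 and Itih3 show a wide gap between groups, Fgg overlaps, and F8 has 1 knockout library (27.2 CPM) far below the other two.

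Of the 8 anticoagulants, 0 were called by limma voom and 0 by limma trend, and 3 had an unadjusted p under 0.05, beside 14.5% of all genes called and 30.6% at that unadjusted p. At a wild-type mean of at least 50 CPM, a level that Tfpi and Thbd did not reach, 28.3% of all genes were called. With so few genes, these counts are too small to be set apart from those shares. Serpinc1, antithrombin, the main inhibitor of thrombin and factor Xa, was at 1683, 1655 and 1610 CPM in wild type and 1974, 1954 and 2038 CPM in knockout. Its groups were narrow and separate, and the difference of 0.27 ± 0.09 missed the threshold (adjusted p = 0.0557; 0.0263 with no low-count filter). Serpina10, the protein Z-dependent inhibitor of factor Xa, was at 167, 178 and 147 CPM against 249, 248 and 173 CPM. Knockout library 3 lay within the wild-type range (0.43 ± 0.14, adjusted p = 0.0579); without it the difference was 0.61 (adjusted p = 0.00585). Serpina10 passed in 5 of the 9 alternatives that keep all 6 libraries. Proc, protein C, which inactivates factors Va and VIIIa, had a log2 difference of 0.22 ± 0.10 (adjusted p = 0.160), Pros1, its cofactor protein S, 0.09 ± 0.11, Proz, protein Z, 0.10 ± 0.10, and Serpind1, heparin cofactor II, −0.07 ± 0.10. Tfpi, the tissue factor pathway inhibitor, was at 8.53, 10.4 and 10.96 CPM against 3.88, 9.43 and 8.06 CPM (−0.50 ± 0.30, adjusted p = 0.279). Thbd, thrombomodulin, the endothelial receptor that turns thrombin towards protein C, was at 11.1, 14.1 and 10.6 against 9.59, 21.0 and 10.1 CPM (0.09 ± 0.28, adjusted p = 0.866). The 95% intervals of the last pair, −1.14 to 0.14 for Tfpi and −0.51 to 0.69 for Thbd, are wide.

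In fibrinolysis the zymogen and its inhibitor were both higher. Plg, plasminogen (ENSMUSG00000059481, mm9 chromosome 17, 12571474 to 12612250), was at 2799, 2729 and 2797 CPM in wild type and 3766, 3624 and 3491 CPM in knockout. The groups were far apart for their spread (0.39 ± 0.09, adjusted p = 0.0117, up to 0.0530, lost without wild-type library 3 or knockout library 1). Serpinf2, alpha-2-antiplasmin, which inactivates plasmin (ENSMUSG00000038224, mm9 chromosome 11, 75245234 to 75253093), was at 879, 825 and 696 CPM against 1367, 1155 and 1143 CPM. All knockout libraries were above wild type, library 1 by most (0.61 ± 0.11, adjusted p = 0.00371, and at most 0.0319 without any 1 library). Per length, the Plg to Serpinf2 ratio was 2.96 ± 0.379 in wild type and 2.52 ± 0.169 in knockout (SD, n = 3), untested. Cpb2, the carboxypeptidase TAFI that protects fibrin from plasmin, had a log2 difference of 0.18 ± 0.11 (adjusted p = 0.295).

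The plasminogen activators and the urokinase receptor were at the limit of detection. Plat, tissue plasminogen activator, had 4, 2 and 7 counts in the wild-type libraries, against 0, 6 and 8 for knockout. Plau, urokinase, had 4, 3 and 6 against 4, 8 and 10 counts, and Plaur, its receptor, 4, 4 and 2 against 3, 10 and 2 counts. None of them reached the filter of 1.83 CPM in 3 libraries, so they were not tested. At counts this low, whether they differ between genotypes is not judged.

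The inter-alpha heavy chains moved apart, with Itih3 higher and Itih2 lower. Itih3 (ENSMUSG00000006522, mm9 chromosome 14, 31721762 to 31736731) was at 704, 707 and 680 CPM in wild type and 1063, 1176 and 983 CPM in knockout. The wild-type values were within a few percent of each other and all knockout values were far above them (0.62 ± 0.10, adjusted p = 0.00146, and at most 0.0156 without any 1 library). Itih2, on chromosome 2, was lower, at 1559, 1900 and 1692 CPM against 1387, 1302 and 1397 CPM. The groups did not overlap (−0.33 ± 0.10, adjusted p = 0.0420), but the call was kept only without wild-type library 1 among the fits that left out 1 library (up to 0.154), and was lost under limma trend (0.0548). Per length, the Itih3 to Itih2 ratio was 0.466 ± 0.0456 in wild type and 0.902 ± 0.116 in knockout (SD, n = 3), with 0.515 the highest wild-type and 0.803 the lowest knockout value. In wild type Itih2 was the more abundant chain in each library, and in knockout the levels were closer together. This ratio was not tested.

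The other members of this family were not called. Itih1 was at 596, 682 and 590 against 679, 702 and 706 CPM (0.16 ± 0.10, adjusted p = 0.278), and Itih4 had a log2 difference of 0.09 ± 0.13 (adjusted p = 0.678). Ambp, the precursor of bikunin and of alpha-1-microglobulin, was at 3438, 2962 and 3268 CPM against 4140, 3652 and 3495 CPM, without overlap (0.22 ± 0.10, adjusted p = 0.155). Per length, the ratio of Ambp to Itih2 went from 4.27 ± 0.728 to 6.21 ± 0.547. Pzp, the broad-range proteinase trap of mouse plasma, was at 5561, 7165 and 5974 against 6401, 5923 and 5640 CPM and overlapped widely (−0.05 ± 0.11, adjusted p = 0.791).

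Several of the genes lie close together (mm9). F7 and F10 are 1.50 kb apart on chromosome 8 in the same orientation, with Proz 4.29 kb beyond, and their log2 differences were 0.90, 0.19 and 0.10 in that order. Per length, the F7 to F10 ratio was 0.166, 0.170 and 0.161 in wild type and 0.269, 0.262 and 0.284 in knockout, so the difference between these neighbours was seen in each library. Itih4, Itih3 and Itih1 are 6.60 and 5.64 kb apart on chromosome 14, with differences of 0.09, 0.62 and 0.16. F11 and Klkb1, which are 7.43 kb apart and arose from a common ancestor, had 0.03 and −0.49. Their ratio (F11 to Klkb1, per length) was 0.344, 0.239 and 0.250 in wild type and 0.424, 0.356 and 0.402 in knockout. In the fibrinogen cluster, Fgg, Fga and Fgb (11.1 and 9.98 kb apart, with 1 other gene with counts between Fga and Fgb) had 0.39, 0.48 and 0.33, and Hrg, Kng2 and Kng1 (24.3 and 28.9 kb apart) had 0.23, 0.32 and 0.46. Differences between neighbours were not tested.

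**Figure D4:**
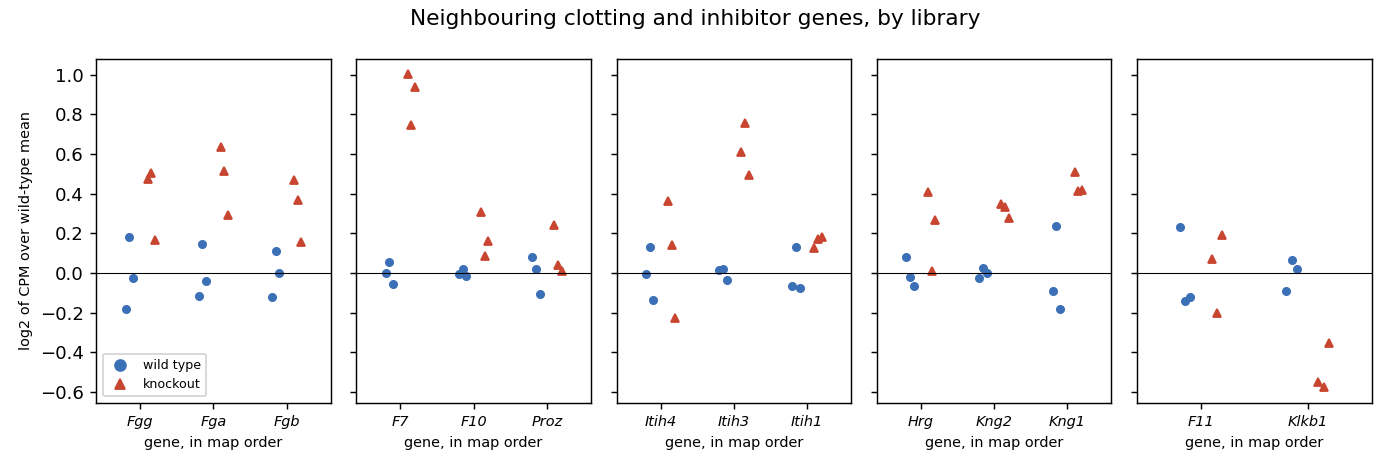
Log2 of CPM over the wild-type mean in each library for genes of the same cluster, in map order, without distances (circles, wild type; triangles, SHP knockout). All 3 knockout libraries are above wild type for F7 and Itih3 by more than for the other genes of their cluster, Klkb1 is below wild type beside F11, and the 3 fibrinogen genes have similar values.

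The knockout libraries also had an order among themselves. Knockout library 1 was the highest of its group for 19 of the 35 tested genes and knockout library 3 the lowest for 16, as for Fga, Fgb and Ambp. Among wild-type libraries, library 2 was the highest for 19 and library 3 the lowest for 16. For hepatocyte markers the sum of 6 (among them Alb, Apoa1 and Ttr) was 85730 to 109300 CPM in wild type and 96930 to 99620 CPM in knockout, and 0 of the 6 were called by limma voom, with 1 (Trf) at an unadjusted p under 0.05 that passed in 6 of the 9 alternatives with all libraries. Platelet and megakaryocyte markers summed to 2.70 to 4.36 CPM in wild type and 3.34 to 4.57 CPM in knockout over 5 genes with counts, with Pf4 at 0 in 2 wild-type libraries. Kupffer cell and macrophage markers summed to 391 to 457 CPM in wild type and 402 to 617 CPM in knockout; Marco, C1qa and C1qc were called higher among 10, and each lost its call in at least 1 fit without a single library (up to 0.161, 0.0811 and 0.163). Neutrophil and lymphocyte markers summed to at most 2.90 CPM, and erythroid and cholangiocyte sums overlapped between groups. The part of these cells in the results was not tested.

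A further list of 40 genes, called other clotting genes below, also had calls in both directions. It covers processing enzymes, receptors, further inhibitors and plasma proteins, and some of its genes have other main roles, Hgfac and Eno1 among them. Of the 29 tested, 6 were higher, 2 lower and 21 not called, with a median log2 difference of 0.19. The called share, 8 of 29 (27.6%), lies beside 14.5% of all genes. This list, too, was chosen with earlier results of these data known, so the share is description only. The 29 include genes with wild-type means below 50 CPM, Eno1 and Tfpi2 among them. The 28.3% called among all genes at 50 CPM or more is therefore not a like comparison. Fn1, fibronectin, which is crosslinked into clots, was at 2469, 2148 and 1960 CPM in wild type and 4145, 3624 and 3286 CPM in knockout (0.75 ± 0.11, adjusted p = 0.00115). Hgfac, a serine protease related to factor XII that activates hepatocyte growth factor, was at 117 ± 12.3 and 199.9 ± 10.3 CPM (SD, n = 3 each; 0.78 ± 0.11, adjusted p = 0.000705). Mcfd2, which with Lman1 carries factors V and VIII out of the endoplasmic reticulum, was at 161 ± 13.5 and 265 ± 15.5 CPM (0.72 ± 0.10, adjusted p = 0.000842). Vkorc1, which recycles vitamin K for the carboxylation of factors such as F2 and F7, was at 58.3 ± 7.01 and 84.4 ± 6.17 CPM (0.53 ± 0.12, adjusted p = 0.0119; lost without wild-type library 3, 0.0716). The remaining increases were in Furin (0.48 ± 0.09) and Mst1 (0.42 ± 0.11, adjusted p = 0.0241; lost without wild-type library 3 or knockout library 1 or 2, up to 0.122). Eno1, a glycolytic enzyme that also binds plasminogen at the cell surface, was lower, from 49.98 ± 7.96 to 18.2 ± 0.571 CPM (−1.43 ± 0.16, adjusted p = 0.000176); it has many near-identical pseudogene copies and its value is uncertain. Tfpi2, an inhibitor related to Tfpi, went from 42.8 ± 4.23 to 28.2 ± 2.70 CPM (−0.60 ± 0.14, adjusted p = 0.0145; lost without wild-type library 3 or knockout library 2, up to 0.0780). Apoh, the most abundant one not called, was at 2170 ± 63.1 and 2051 ± 114 CPM (−0.08 ± 0.09, adjusted p = 0.585).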

How the data were processed

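Gene counts came from 1 deposited table. The submitters' processing notes name Novoalign 2.05.33 and the mm9 build. The sources used here do not name the counting tool, its handling of strand and multiple alignments, or the annotation. Per the file headers, the deposited values are raw counts (whole numbers) per gene and library, RPKM values and a log2 ratio for pooled groups, and 2 columns of scores by the authors holding p and adjusted p, which were read as scaled negative log10 values after recomputing the adjustment. Of 33495 genes listed, 13901 had empty cells, 4840 of them in lines that end early, so the count columns were given a general unit here and limma voom was the test. Of counts between 1 and 19, 61.8% were even, as where both mates of a pair are counted, so counts are not independent fragments.

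Genes were tested with at least 1.83 CPM (10 counts at the median library) in 3 libraries and 15 counts in all. Scaling used trimmed means of M values (own code), and the fit was tested on simulated data. After adding 0.5 to each count, log2 CPM entered limma 3.58.1 (voom, in R 4.3.3) with a single term for genotype, and p-values were adjusted by Benjamini-Hochberg over 11794 genes. Levels per length used the gene length in bases given in the deposited table. With the authors' totals of 26465203 wild-type and 25897835 knockout observations, these lengths and the counts gave back the deposited pooled RPKM. With 3 against 3, an exact permutation test of a single value could not give a two-sided p under 0.1, so none was run. Python 3.11.15, pandas 2.3.3 and matplotlib 3.10.9 were used for tables and plots.

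The 38 genes and the other lists were chosen with earlier results of these data known. All 38 are named, with values per library for those past the threshold, at the 5 highest wild-type levels or below the filter. Of the other clotting genes the rule names up to 4 of the largest called differences in each direction and the most abundant uncalled one; Furin and Mst1 were added after their values were seen. Of markers it names called ones and the first 3 of a list, of which those bearing on the results are given. Alternatives were limma trend, robust moderation, filters, scaling, sample quality weights, a replicate block and leaving out each library. Starts, counted from 0 in the table, were raised by 1. Promoters are RefSeq windows of GRCm38.p6 and were not converted to mm9.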

Additional observations from a re-analysis of the deposited data

How the results depend on the processing

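Across 9 alternatives that keep all 6 libraries, 12 of the 16 calls held in each, and every count of genes called among the 38, among the other clotting genes and over all genes stayed within 1.5 times its value. The calls lost were those of Fgb, Fgg and Itih2 under limma trend, Kng2 with no low-count filter and Fgb with a replicate block. Over the fits that left out 1 library, genes called among the 38 numbered 3 to 10 higher and 1 to 5 lower, other clotting genes 4 to 9 higher and 1 to 3 lower, and all genes 341 to 846 higher and 280 to 797 lower. With the replicate number as a block, 11 of the 38 were higher and 5 lower, and 936 and 843 of all genes; same-numbered libraries did not deviate together (correlations from −0.0244 to −0.0187 over genes), no library correlated best with its own number, and the numbers were not taken as pairs. Depth limits F3, Tfpi, Thbd, Vwf, Plat, Plau and Plaur. The median of all genes moved by less than 0.1 on the log2 scale between scalings.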

Other observations

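Some clotting genes outside the named set varied widely among the knockout libraries and were not called by limma voom with all 6 libraries. Thbs1, thrombospondin 1, a platelet and matrix glycoprotein, was at 1.71, 0.623 and 1.75 CPM in wild type and 3.88, 19.4 and 3.63 CPM in knockout. Each knockout library was above each wild-type library, and knockout library 2 was the highest (log2 difference 2.18 ± 0.81, adjusted p = 0.0885). Every wild-type value was below the filter of 1.83 CPM, so Thbs1 was tested only because of its knockout libraries. Its p-values are therefore not independent of the filter and are given as description alone. Thbs1 passed under limma trend (adjusted p = 0.0264) and without knockout library 3 (0.0359), and the authors' deposited table gives an adjusted p of 1.4e-09. Fgl1, a fibrinogen-like protein secreted by hepatocytes, was at 210, 227 and 224 CPM in wild type and 627, 446 and 169 CPM in knockout. Knockout libraries 1 and 2 were above, and library 3 below, all wild-type libraries (0.70 ± 0.32, adjusted p = 0.161). Without knockout library 3 the difference of Fgl1 was 1.26 (adjusted p = 5.36e-05), and the authors' deposited table gives an adjusted p of 2.21e-06. Both genes were chosen after their values were seen.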
